A study of Mus musculus with 10 samples.

Results

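The 41 genes described here act in mitosis and chromosome segregation, and were taken by name from a list of G2 and M phase genes. The list was chosen with earlier results of these data known. All 41 symbols were found among the 24016 gene symbols with measured nascent transcription. They were set in 7 role groups, from the cyclins and kinases of mitotic entry to the condensin subunits. The data come from mouse duodenal organoids, which are epithelial structures grown in Matrigel from intestinal cells. ENRI medium held EGF, Noggin, R-spondin and the porcupine inhibitor IWP-2, which blocks Wnt secretion, and held neither Wnt3A nor CHIR-99021. WENRC medium held EGF, Noggin and R-spondin together with Wnt3A and with CHIR-99021, an inhibitor of the kinase GSK3 that activates Wnt signalling. Global run-on sequencing (GRO-seq), which reads RNA made by polymerases already engaged on genes, gave 2 libraries in ENRI and 2 in WENRC. H3K27me3, the repressive histone mark made by PRC2, was profiled by ChIP-seq in 1 library of each medium.

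The labels call the ENRI samples enterocytes and the WENRC samples intestinal stem cells, give no genotype, strain or age, and number mice 1 and 2 in each medium. The sample columns carry a batch number, 1 or 2, and no mouse number. GRO-seq depth was 29128101 and 15787828 reads over all transcripts in ENRI batches 1 and 2, and 25839484 and 9245915 reads in WENRC batches 1 and 2. The summed level of 5 stem cell markers (Lgr5, Ascl2, Olfm4, Axin2 and Smoc2) was 1.69 to 2.27 RPKM (reads per kilobase of transcript, scaled to the library total) in ENRI and 16.9 to 22.4 RPKM in WENRC. The summed level of 6 enterocyte markers was 522 to 694 RPKM in ENRI and 17.6 to 40.3 RPKM in WENRC. Summed goblet cell markers were at 27.1 to 43.5 RPKM in ENRI and 3.97 to 6.94 RPKM in WENRC, and Paneth cell markers at 0.893 to 3.36 RPKM in ENRI and 3.31 to 6.79 RPKM in WENRC. Of the 5 goblet markers, 4 had higher and 1 had lower fitted levels in ENRI. Summed endocrine markers were at 2.84 to 6.18 RPKM in ENRI and 2.76 to 5.28 RPKM in WENRC. Epithelial markers summed to 73.7 to 97.4 RPKM in ENRI and 72.3 to 80.6 RPKM in WENRC, and mesenchymal markers to 0.822 to 0.923 RPKM in ENRI and 0.993 to 1.49 RPKM in WENRC. Immune markers summed to 5.28 to 5.60 RPKM in ENRI and 13.2 to 16.7 RPKM in WENRC, and endothelial markers to 0.0308 to 0.0622 RPKM in ENRI and 0.0251 to 0.0647 RPKM in WENRC. Only 1 of 5 immune, 1 of 6 mesenchymal and 0 of 3 endothelial markers reached 0.5 RPKM in at least 2 libraries. For Paneth cell markers it was 3 of 4, and for endocrine markers 3 of 5. No marker was at 0 in all 4 libraries. The part of these cell type differences in the results below was not tested, and in bulk samples fewer dividing cells and less transcription of these genes per cell cannot be told apart.

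In mitosis, cyclin-dependent kinase 1 bound to cyclins A and B starts entry, condensin compacts the chromosomes, and kinetochores built on centromeres attach them to the spindle. The spindle checkpoint holds back the anaphase-promoting complex (APC/C) until attachment is complete, after which separase cuts cohesin and the central spindle guides cytokinesis. In the intestine, division takes place in the crypt, in stem cells and their transit-amplifying daughters, while the enterocytes of the villus have left the cell cycle. Many of these genes are transcribed late in the cycle, through promoters in which the MuvB complexes bind the cell cycle genes homology region (CHR) and NF-Y binds CCAAT boxes.

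The promoter letters are shown here because CHR letters were common in this group. RefSeq windows from 250 bases before to 50 bases after the annotated start (build GRCm38.p6) were at hand for 34 of the 41 genes. The letters TTTGAA or TTCGAA, read on both strands (TTCGAA reads the same on both), were present in 27 of 34 windows, or 79.4%. They were present in at least 1 window of 21.7% of 27025 genes in all and of 16.3% of 8308 genes tested in the GRO-seq data. The same held for 8 of 37 DNA replication and G1/S genes (21.6%). Shares of all promoters below are likewise shares of genes with a match in at least 1 window. TTTGAA alone was in 26 windows (76.5%, against 20.2% of all promoters). In the nearer window from 100 bases before to 50 after the start, CHR letters were in 25 of 34 windows (73.5%, against 9.87% of all promoters). The letters CCAAT on either strand were in 26 windows (76.5%, against 41.1% of all promoters), and at least 2 CCAAT matches were in 17 (50.0%, against 13.3%). The promoters of DNA replication and G1/S genes came nearer to the 41 here, with CCAAT letters in 62.2% and at least 2 matches in 40.5%. Both CHR and CCAAT letters were in 24 windows (70.6%, against 8.61% of all promoters). In all 24 of these at least 1 CCAAT match lay upstream of the CHR match furthest downstream. From the nearest such CCAAT match, the median was 35 bases between first bases (9 to 153). Taking the CHR match furthest downstream favours this order, and the order was not compared with that in other promoters. In Cdc20 another CCAAT match, at -8, lay downstream of the CHR match at -18.

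The 30-base sites below carry CHR letters in capitals and are written 5′ to 3′ on the strand of the gene, with coordinates in GRCm38.p6. They are taken from different roles, and in all but that of Mki67 the CHR letters begin within 50 bases after the start.
Plk1, chr7:122159453-122159482, plus strand: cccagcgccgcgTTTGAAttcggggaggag
Aurka, chr2:172370521-172370550, minus strand: aaaaggagaaccTTTGAAttgtaacggctg
Bub1, chr2:127831828-127831857, minus strand: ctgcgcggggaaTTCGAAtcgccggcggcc
Cenpa, chr5:30666890-30666919, plus strand: ggcgggtgatttTTTGAActgctggcgacc
Spc25, chr2:69206172-69206201, minus strand: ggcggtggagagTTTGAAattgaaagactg
Kif4, chrX:100626072-100626101, plus strand: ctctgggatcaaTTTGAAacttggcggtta
Hmmr, chr11:40733412-40733441, minus strand: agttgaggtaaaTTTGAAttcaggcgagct
Racgap1, chr15:99651634-99651663, minus strand: ctggtgcgtgatTTTGAAccggatctggcg
Kif23, chr9:61946780-61946809, minus strand: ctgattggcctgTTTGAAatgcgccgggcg
Mki67, chr7:135716478-135716507, minus strand: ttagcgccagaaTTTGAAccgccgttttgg
Of 35 CHR matches with 12 bases on each side inside the window, 23 read TTTGAA on the strand of the gene, 8 read it on the other strand and 4 were TTCGAA. By position, 19 of 37 matches began within 50 bases after the start and 6 within 50 bases before it. CCAAT matches lay further upstream, with 20 between 100 and 51 bases before the start and 19 in the last 50 bases before it.

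The 120 bases before the start are given for 4 genes described below, to show CCAAT and CHR letters in place. Capitals mark matches to either, and CCAAT on the other strand reads ATTGG.
Cdk1, chr10:69352913-69353032, minus strand: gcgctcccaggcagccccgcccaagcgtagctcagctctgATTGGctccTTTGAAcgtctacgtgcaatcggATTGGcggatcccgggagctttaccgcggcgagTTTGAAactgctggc
Cdc20, chr4:118437344-118437463, minus strand: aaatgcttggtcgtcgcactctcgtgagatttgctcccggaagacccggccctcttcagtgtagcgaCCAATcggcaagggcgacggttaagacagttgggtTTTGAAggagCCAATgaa
Top2a, chr11:99024190-99024309, minus strand: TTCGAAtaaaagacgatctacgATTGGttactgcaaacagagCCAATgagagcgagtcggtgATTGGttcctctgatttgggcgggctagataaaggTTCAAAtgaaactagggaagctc
Ccnb1, chr13:100786487-100786606, minus strand: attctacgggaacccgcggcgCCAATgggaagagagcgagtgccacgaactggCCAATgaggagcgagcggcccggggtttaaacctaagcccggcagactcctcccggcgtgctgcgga
Ccnb1 held 2 CCAAT matches and no CHR letters in its window, while Cdk1 had 2 of each in the stretch shown. A match describes letters only, and its absence says only that the letters are not in that window.

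**Figure D1:**
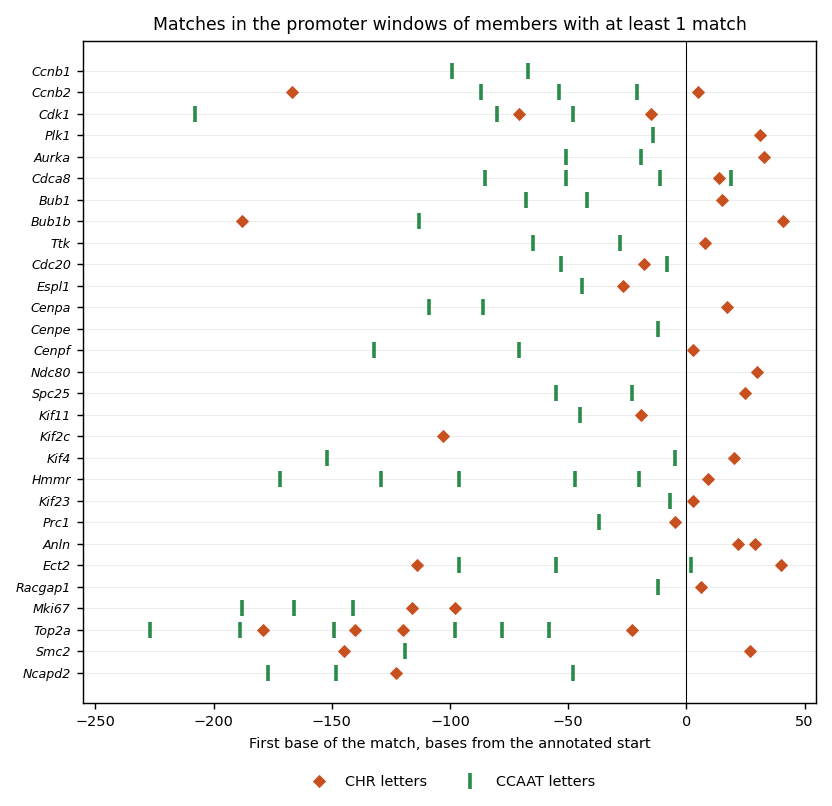
Position of the first base of each CHR match (orange diamonds) and CCAAT match (green bars) in bases from the annotated start, on the horizontal axis, for each gene with at least 1 match, by role from top to bottom. CHR matches gather around and just after the start, and in each of the 24 genes with both kinds a CCAAT match lies to the left of the rightmost CHR match. Taking the rightmost CHR match favours this order.

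Transcription of nearly the whole group was lower in ENRI than in WENRC. All 41 genes passed the filter of at least 0.5 RPKM in at least 2 libraries, and 40 of them had lower fitted levels in ENRI, with Spc25 as the exception. A gene under 0.5 RPKM in both ENRI libraries passed only through its WENRC values, so its lower ENRI level was fixed by the filter. Of all 11602 genes tested, 7619 had lower fitted levels in ENRI. Mean ENRI levels ran from 0.167 to 2.36 RPKM with a median of 0.533 RPKM, and mean WENRC levels from 0.555 to 6.38 RPKM with a median of 1.51 RPKM. The median gene was at 31.7% of its WENRC level in ENRI, against 82.7% for the median of all 11602 genes tested. In 35 genes the ENRI mean was below 50% of the WENRC mean, and the lowest share was 21.4% (Nuf2). How many of all genes lay below 50% was not computed.

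On the log2(RPKM + 0.5) scale, where a difference of -1 is close to a halving for well-transcribed genes and understates it for genes of low level, the median difference was -1.02. The median over all genes tested was -0.21. The range was -1.74 (Top2a) to 0.31 (Spc25), with standard errors of 0.12 to 0.31. At an unadjusted p under 0.05 in limma, a linear model that shares the spread over all genes, 39 genes were lower in ENRI, against 26.9% of all genes tested. After Benjamini-Hochberg adjustment over all genes, 0 of the 41 passed 0.05 in limma, against 0.0862% of all genes that were called lower. The smallest limma adjusted p in the group was 0.0560 and 30 of the 41 lay under 0.06. Both ENRI libraries were below both WENRC libraries for 40 of the 41 genes, against 49.7% of all genes. For genes under 0.5 RPKM in both ENRI libraries, such as Nuf2, Bub1b and Ttk, this lack of overlap was fixed by the filter.

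Whether single genes passed an adjusted threshold depended on the test. At an adjusted p under 0.05, edgeR's quasi-likelihood test on recovered reads called 22 of the 41 lower (2.84% of all genes), and 26 with batch as a block (2.72% of all genes). The same edgeR test with its own expression filter called 0 of the 41 and 0 of all genes. With batch as a block added, it called 0 of the 41 and 193 of all genes in either direction. DESeq2 called 35 lower (8.89% of all genes), and limma after quantile normalization called 24 lower (3.64% of all genes). In the authors' deposited table, 27 of the 41 were lower at an FDR under 0.05 and 0 were higher, where 4.57% of all genes tested here were lower. Limma without the ENRI library of batch 1 called 38 of the 41 lower, where 34.3% of all genes were called lower, and Spc25 higher. Without the ENRI library of batch 2 it called 23 lower (3.33% of all genes). In both of these fits the lone ENRI library was taken to be as variable as the WENRC pair. Limma over all genes called 17 with 4 libraries and 0 with batch as a block. With 2 libraries per medium, these p-values set the difference against a spread between few libraries, estimated with information shared over genes. An exact permutation test cannot pass the threshold.

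**Figure D2:**
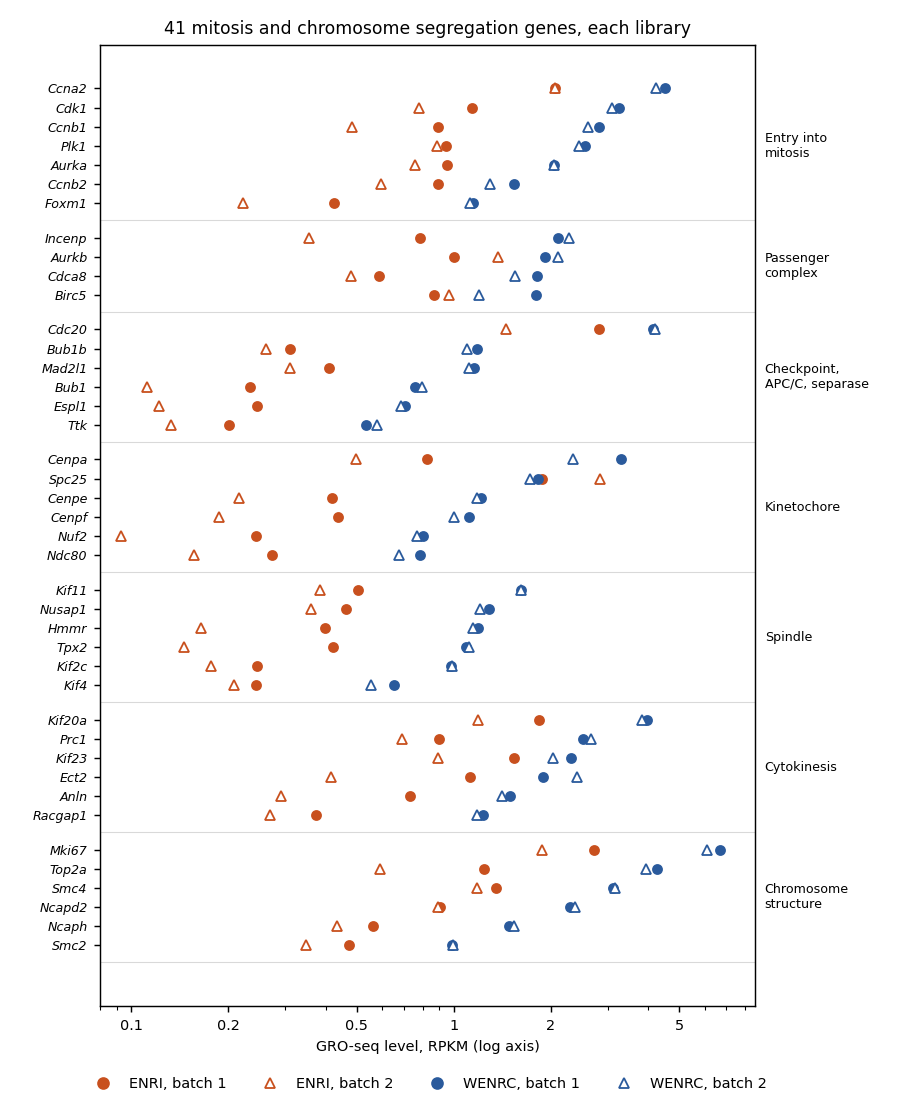
GRO-seq level of each of the 41 genes in RPKM on a log axis, with genes by role from top to bottom; orange symbols are ENRI libraries, blue symbols WENRC libraries, circles batch 1 and triangles batch 2. In every row but that of Spc25 the orange symbols lie left of the blue ones.

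The median of the 7 genes of mitotic entry was 36.7% of the WENRC level in ENRI, and all 7 were lower in ENRI with an unadjusted p under 0.05. Ccna2, the A-type cyclin of S and G2 phase and the highest of the group in WENRC, was at 2.06 and 2.05 RPKM in ENRI, against 4.50 and 4.23 RPKM in WENRC. Its log2 difference was -0.93 ± 0.15 (SE, n = 2 libraries per medium; limma adjusted p = 0.0560). The 2 ENRI libraries were almost equal and both lay far below the WENRC pair, and 862 bp at its end overlap Exosc9 on the other strand. Cdk1, the kinase that cyclins A and B activate, was at 1.14 and 0.778 RPKM in ENRI, against 3.25 and 3.10 RPKM in WENRC. The ENRI mean was 30.2% of the WENRC mean, with no overlap between the media.

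Ccnb1, the main B-type cyclin of mitotic entry, had 0.891 and 0.482 RPKM in ENRI, against 2.82 and 2.60 RPKM in WENRC. Its log2 difference of -1.46 ± 0.21 (SE, n = 2 per medium) was the most negative of this role group. Ccnb2, the other B-type cyclin, had 0.891 and 0.594 RPKM in ENRI, against 1.54 and 1.29 RPKM in WENRC, and its difference of -0.63 ± 0.17 was the least negative. The ENRI level was thus 25.4% of the WENRC level for Ccnb1 and 52.5% for Ccnb2, both without overlap. Foxm1, the forkhead factor that activates many G2 and M genes, had 0.423 and 0.221 RPKM in ENRI, against 1.14 and 1.12 RPKM in WENRC. Its ENRI mean was 28.4% of its WENRC mean, and its last 376 bp overlap 4933413G19Rik on the same strand. Plk1, the polo kinase of mitosis, was at 36.7% and Aurka, the centrosome kinase, at 41.7% of the WENRC mean.

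The chromosomal passenger complex, which corrects faulty attachments and acts in cytokinesis, had a median log2 difference of -0.83 over 4 genes, which ranged from -1.35 to -0.48. Incenp, its scaffold, had 0.788 and 0.356 RPKM in ENRI, against 2.10 and 2.27 RPKM in WENRC, with a log2 difference of -1.35 ± 0.23 (SE, n = 2 per medium). Birc5 (survivin), which brings the complex to centromeres, had 0.865 and 0.964 RPKM in ENRI, against 1.80 and 1.20 RPKM in WENRC. Its difference of -0.48 ± 0.19 had an unadjusted limma p of 0.0579 and an adjusted p of 0.139, so it did not pass even the unadjusted threshold. The media did not overlap, but the ENRI value of batch 2 came close to the WENRC value of the same batch. In that batch the ratio of reads over library totals was 0.805, with an exact binomial 95% interval of 0.588 to 1.11 that covers counting error only. Aurkb, the kinase of the complex, was at 58.9% and Cdca8 (borealin) at 31.9% of the WENRC mean.

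The 6 checkpoint, APC/C activator and separase genes had a median log2 difference of -0.90, and all 6 were lower at an unadjusted p under 0.05. Cdc20, which activates the APC/C once the checkpoint is satisfied, had 2.82 and 1.45 RPKM in ENRI, against 4.16 and 4.19 RPKM in WENRC. The SD was 0.966 RPKM between the ENRI libraries and 0.0227 RPKM between the WENRC libraries, and the log2 difference was -0.87 ± 0.30 (SE, n = 2 per medium). A stretch of 51 bp at its end overlaps Elovl1 on the other strand. Bub1b (BubR1), a part of the checkpoint inhibitor of Cdc20, had 0.309 and 0.261 RPKM in ENRI, against 1.18 and 1.10 RPKM in WENRC. Ttk (Mps1), the kinase at the head of the checkpoint, had 0.201 and 0.133 RPKM in ENRI, against 0.533 and 0.577 RPKM in WENRC. The ENRI means were at 25.1% of WENRC for Bub1b and 30.1% for Ttk. Both genes were under 0.5 RPKM in both ENRI libraries, so their lack of overlap between the media was fixed by the filter. Bub1 was at 22.2%, Espl1 (separase) at 26.5% and Mad2l1 at 31.7% of the WENRC mean.

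Of the 6 centromere and kinetochore genes, 5 were lower in ENRI at an unadjusted p under 0.05 and Spc25 was not. Cenpa, the histone H3 variant that marks centromeres, had 0.823 and 0.496 RPKM in ENRI, against 3.31 and 2.33 RPKM in WENRC. Its log2 difference was -1.52 ± 0.23 (SE, n = 2 per medium), and the ENRI mean was 23.4% of the WENRC mean. The difference was nearly the same in both batches, at -1.52 in batch 1 and -1.51 in batch 2. Cenpe, the kinetochore motor, was at 26.6%, and Cenpf, a large coiled-coil kinetochore protein, at 29.6% of the WENRC mean.

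Spc25, one of 4 subunits of the Ndc80 complex that binds kinetochores to microtubules, was the only one of the 41 with a higher ENRI level. It had 1.88 and 2.84 RPKM in ENRI, against 1.82 and 1.72 RPKM in WENRC, a log2 difference of 0.31 ± 0.21 (SE, n = 2 per medium). In limma its adjusted p was 0.320. The ENRI libraries lay above the WENRC libraries, by little in batch 1 (log2 difference 0.04) and by more in batch 2 (0.59). The ratio of reads over library totals was 1.03 in batch 1 (exact 95% interval 0.921 to 1.15) and 1.65 in batch 2 (1.40 to 1.95). Without the ENRI library of batch 1 the log2 difference was 0.56, and without that of batch 2 it was 0.07. In both of these fits the lone ENRI library was taken to be as variable as the WENRC pair. Spc25 kept its direction over all 19 alternatives. At an adjusted p under 0.05 it was not called higher in edgeR with or without the block, in DESeq2 without a block, or in limma after quantile normalization.

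Both other Ndc80 complex genes in the group had lower ENRI levels. Ndc80 itself had 0.273 and 0.157 RPKM in ENRI, against 0.785 and 0.675 RPKM in WENRC, and Nuf2, its partner, had 0.244 and 0.0926 RPKM in ENRI, against 0.801 and 0.768 RPKM in WENRC. The Spc25 interval, chr2:69031952-69044247 on the minus strand in mm9, has its transcription end 4566 bp from the end of Nostrin on the plus strand, whose product is involved in nitric oxide synthase trafficking. Nostrin, chosen after its values were seen, had 1.83 and 3.25 RPKM in ENRI, against 1.10 and 0.970 RPKM in WENRC. Both of these convergent genes were highest in the ENRI library of batch 2. The strand setting of the counting is not given in the sources used here, and the part of Nostrin transcription in the Spc25 value was not tested. The Spc25 promoter window held CHR letters, with the first base at position 25 after the start, and 2 CCAAT matches.

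**Figure D3:**
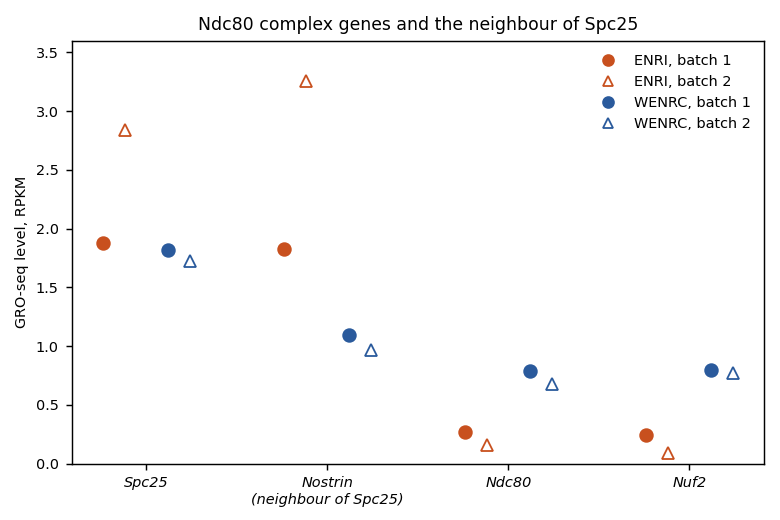
GRO-seq level in RPKM of Spc25, its convergent neighbour Nostrin and the Ndc80 complex genes Ndc80 and Nuf2, with ENRI libraries in orange left of WENRC libraries in blue (circles batch 1, triangles batch 2). Spc25 and Nostrin are highest in the ENRI library of batch 2, while Ndc80 and Nuf2 are lower in both ENRI libraries.

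The 6 spindle genes had a median log2 difference of -1.06, and all 6 were lower in the authors' deposited table at an FDR under 0.05. Kif11 (Eg5), the motor that pushes spindle poles apart, had 0.503 and 0.385 RPKM in ENRI, against 1.61 and 1.62 RPKM in WENRC. Its log2 difference was -1.17 ± 0.13 (SE, n = 2 per medium), with the ENRI mean at 27.5% of the WENRC mean. Kif4, a chromokinesin on the X chromosome, had 0.244 and 0.208 RPKM in ENRI, against 0.654 and 0.551 RPKM in WENRC. It differed least in this role group, at -0.60 ± 0.14, yet its ENRI mean was 37.5% of the WENRC mean, since the pseudocount shrinks differences of low genes. Kif2c, the microtubule-depolymerising motor of centromeres, was at 21.5%, Tpx2, the activator of Aurora A, at 25.7% and Nusap1 at 33.1% of the WENRC mean, and Hmmr had a log2 difference of -1.11.

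The 6 central spindle and cytokinesis genes had a median log2 difference of -1.09, all with an unadjusted p under 0.05. Prc1, which bundles the microtubules of the central spindle, had 0.899 and 0.688 RPKM in ENRI, against 2.52 and 2.67 RPKM in WENRC. Kif20a (MKLP2), the motor that moves the passenger complex to the central spindle, had 1.84 and 1.19 RPKM in ENRI, against 3.96 and 3.84 RPKM in WENRC. Both were without overlap between the media, at 30.6% (Prc1) and 38.8% (Kif20a) of WENRC, and Kif20a overlaps Cdc23 by 1594 bp and Brd8 by 239 bp. Kif23 (MKLP1), the motor of the centralspindlin complex, had 1.54 and 0.890 RPKM in ENRI, against 2.30 and 2.02 RPKM in WENRC. Its log2 difference of -0.66 ± 0.23 was the least negative of this role group, while its partner Racgap1 was at 26.7% of the WENRC mean, against 56.2% for Kif23. Ect2, the exchange factor that activates RhoA at the cleavage site, varied most between batches, with log2 differences of -0.56 in batch 1 and -1.66 in batch 2. Anln, the scaffold of the contractile ring, was at 35.2% of the WENRC mean.

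The 6 genes of chromosome structure had a median log2 difference of -1.03. Mki67, which coats mitotic chromosomes and is the usual marker of proliferation, was the highest of the 41 in WENRC. It had 2.72 and 1.87 RPKM in ENRI, against 6.67 and 6.10 RPKM in WENRC, a log2 difference of -1.32 ± 0.22 (SE, n = 2 per medium; limma adjusted p = 0.0560). Top2a, the topoisomerase that untangles sister chromatids, had 1.24 and 0.590 RPKM in ENRI, against 4.26 and 3.95 RPKM in WENRC. Its difference of -1.74 ± 0.26 was the most negative of the 41, with the ENRI mean at 22.3% of the WENRC mean. Smc2, a core subunit of both condensins, had 0.474 and 0.348 RPKM in ENRI, against 0.983 and 0.991 RPKM in WENRC, and differed least in its role group, at -0.71 ± 0.13. The condensin genes lay close together, with ENRI at 41.6% of WENRC for Smc2, 40.2% for Smc4, 38.5% for Ncapd2 and 32.8% for Ncaph.

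**Figure D4:**
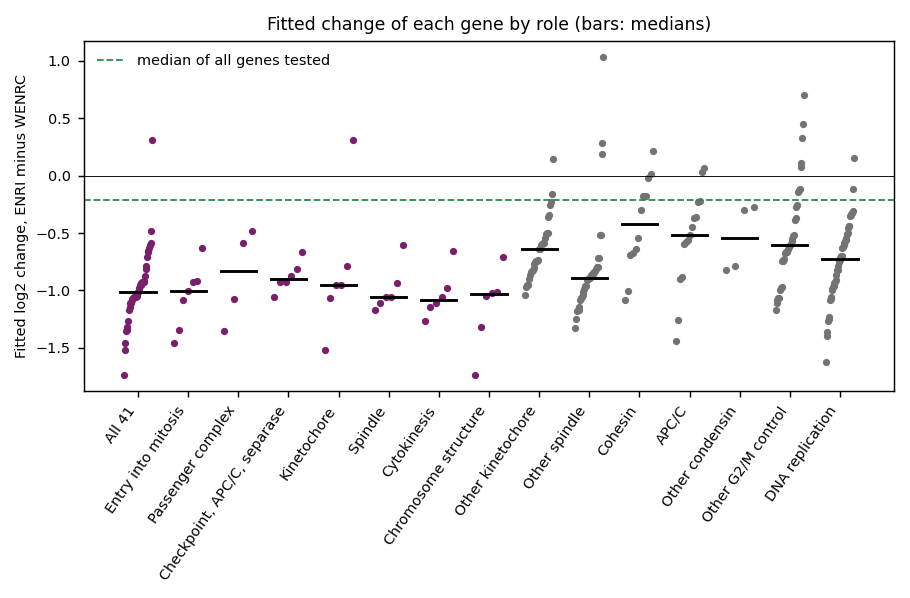
Fitted log2 difference, ENRI minus WENRC, of each gene (points) with the median of each list (black bars); the 41 genes and their role groups are in purple, other lists in grey, and the dashed line is the median of all genes tested. The role group medians lie between -1.09 and -0.83, and Spc25 is the 1 purple point above 0 in its role group and among the 41.

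The size of the difference varied with the batch. The median log2 difference was -0.89 in batch 1 and -1.13 in batch 2, and it was more negative in batch 2 for 34 of the 41 genes. Over all genes tested the medians were -0.16 in batch 1 and -0.24 in batch 2, and 54.9% of genes were more negative in batch 2. In each batch 40 of the 41 were below 0, against 64.6% of all genes in batch 1 and 63.7% in batch 2. Among the ENRI libraries, batch 1 was above batch 2 for 38 genes, with a median ratio of 1.46, against 1.08 over all genes tested. Among the WENRC libraries, batch 1 was above batch 2 for 27 genes, with a median ratio of 1.04, against 1.03 over all genes. The ENRI library of batch 1 was also the deeper of its pair, and the part of depth in this was not tested. Reads per gene and library ran from 27 to 4583, and the exact 95% interval of the read ratio lay below 1 for 40 genes in batch 1 (51.7% of all genes) and 39 in batch 2 (51.2% of all genes).

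**Figure D5:**
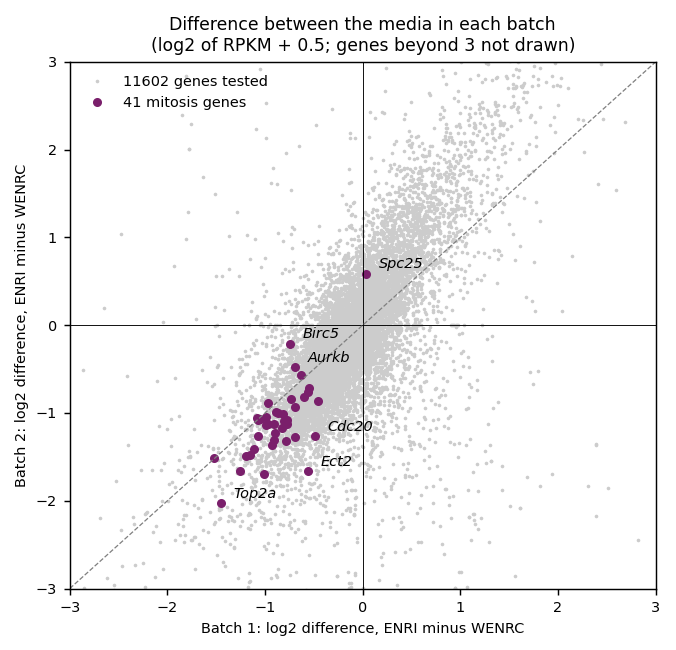
Log2 difference, ENRI minus WENRC, of RPKM + 0.5 in batch 1 (horizontal) and batch 2 (vertical); the 41 genes are purple, all genes tested grey, and the dashed line marks equal differences. Of the 41, 40 lie below 0 on both axes and 34 lie below the dashed line.

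Within the group, the decrease in ENRI tended to be larger in longer genes and smaller in genes with a higher WENRC level. Length and WENRC level are themselves related. Leaving out Spc25, the 8 genes shorter than 10 kb had a median ENRI level of 42.9% of WENRC, and the 32 longer genes 30.1%. Over all genes tested the medians were 78.6% for 4299 shorter genes and 84.4% for 7303 longer ones. Across the 41 genes the log2 ratio of mean RPKM and log2 length had a Pearson correlation of -0.37 and a Spearman correlation of -0.36 (n = 41 genes, which share the same 4 libraries). Without Spc25 the values were -0.38 and -0.33. The same log2 ratio had a Spearman correlation of 0.35 with the mean WENRC level, with and without Spc25. Length and WENRC level had a Spearman correlation of -0.52 across the 41 genes. The WENRC level also enters the ratio.

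Other genes of the same processes also tended to lower values in ENRI, with a smaller median difference. Of 151 such genes in 6 lists, 132 were tested, 119 had a negative log2 difference, 95 were lower and 2 higher at an unadjusted p under 0.05, and 0 passed the limma adjusted threshold. Their median log2 difference was -0.68. Over all 11602 genes tested, the median was -0.21 and 7619 were negative. At an unadjusted p under 0.05, 3124 of all genes (26.9%) were lower and 1397 higher. Of other kinetochore and checkpoint genes, 25 of 31 were lower at an unadjusted p under 0.05. There the lowest was Ska2, of the Ska complex on spindle microtubules, with 0.463 ± 0.263 RPKM in ENRI, against 1.45 ± 0.285 RPKM in WENRC (SD, n = 2 each). The most positive was Stra13, at 0.14.

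Of other spindle genes, 31 of 35 were lower at an unadjusted p under 0.05, against 26.9% of all genes tested, and 1 was higher. Their median log2 difference was -0.89. Tuba1b, an alpha-tubulin, averaged 2.25 ± 0.459 RPKM in ENRI, against 6.36 ± 0.466 RPKM in WENRC (SD, n = 2 each). Ran, the GTPase that guides spindle assembly, was at -1.25, and Ndel1, a dynein regulator, was the most positive of all 132 at 1.04, with 3.55 ± 1.27 RPKM in ENRI, against 1.43 ± 0.149 RPKM in WENRC. The ranges of Ndel1 did not touch, and its limma adjusted p was 0.0740.

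Cohesin genes had a median of -0.42, with 6 of 12 lower at an unadjusted p under 0.05. For this and the lists that follow, the values over all genes tested were a median of -0.21 and 26.9% lower. Esco2, which acetylates cohesin in S phase, was at -1.08 and Cdca5 (sororin), which protects cohesion, at -1.01, while the cohesin loader Mau2 was at 0.22. Among APC/C genes, 9 of 15 were lower, with a median of -0.51. There Fbxo5 (Emi1), an inhibitor of the APC/C, was at -1.44 and Ube2c, its ubiquitin-conjugating enzyme, at -1.26, against 0.07 for the core subunit Anapc2. Of the 4 other condensin genes, Ncapg2 was at -0.82 and Ncapg at -0.79, and Ncaph2 was least negative at -0.28. Of 35 other G2/M control genes, 22 were lower and 1 higher, with Ccnf (cyclin F) at -1.17, the kinase Pbk at -1.11 and Ensa, an inhibitor of the phosphatase PP2A, at 0.70. DNA replication and G1/S genes had a median of -0.72, with 36 of 44 lower at an unadjusted p under 0.05.

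H3K27me3 was not found at the starts of the 41 genes by the authors' broad region calls. With 1 library per medium, the promoter, 2 kb on either side of the start, overlapped a broad region for 0 of the 41 in ENRI and 0 of the 41 in WENRC. Over all 24016 genes the share was 8.76% in ENRI and 10.5% in WENRC. The median distance from the start to the nearest broad region was 92.3 kb in ENRI and 94.5 kb in WENRC. The closest was 12876 bp from Spc25 in ENRI and 20646 bp from Cenpf in WENRC, and no broad or narrow region lay in the body of any of the 41. In the narrow lists, 0 of the 41 promoters overlapped a region in ENRI (19.6% of all genes) and 1 in WENRC (17.8% of all genes). That was Bub1, whose nearest narrow region was 2547 bp away in ENRI and 1856 bp away in WENRC. The narrow lists held 55544 regions in ENRI and 33499 in WENRC, and the broad lists 6094 in ENRI and 5009 in WENRC.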

How the data were processed

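GRO-seq reads per RefSeq transcript (mm9) were counted over whole gene bodies by the authors with HOMER, per the file headers; Bowtie, Bowtie2, FastQC and HOMER 4.3 are named in the submitters' processing notes. The deposited signal columns are reads scaled to the same total in each library; whole reads were recovered from their steps (100% of low values whole within 0.1). Another 4 deposited columns, of RPKM, were not used here. Log2 fold changes, the likelihood ratio score, p-values and FDR in the authors' deposited table came from edgeR with batch as a term, per the file headers. H3K27me3 regions were called by the authors in each library against input with HOMER, and their deposited tag signal, score, fold over input (a ratio) and p-value describe single regions, per the file headers. The input DNA and the total H3 ChIP were left aside.

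RPKM was computed from scaled reads for the longest transcript of each symbol. Genes that reached 0.5 RPKM in 2 or more libraries entered limma 3.58.1 (R 4.3.3, mean trend, log2(RPKM + 0.5), no block, Benjamini-Hochberg), two-sided at 0.05. Alternatives used edgeR 4.0.16 and DESeq2 1.42.0 on recovered reads, other filters, pseudocounts, scalings and left-out libraries. Simulated data with known changes, the same spread setting for all genes and no batch effect were used to check the tests without a block. They do not give the error rates of the tests in these data. Sample titles carry mouse numbers 1 and 2 in each medium, but the columns show only batches; deviations from the group means of same-batch libraries correlated at 0.0126 across 11602 genes. Members, lists and tests were chosen with earlier results of these data known. The genes given per library were the highest in WENRC, the most and the least negative of each role group, and Mki67, Cdk1, Ccnb1 and Foxm1; 2 most negative and 1 most positive were named per other list, except 1 that is not reported here. Sequences are from RefSeq (GRCm38.p6), where Aurkb, Ccna2, Foxm1, Incenp, Kif20a, Smc4 and Tpx2 had no window. Intervals cover counting error only, as PCR reads are not independent molecules.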

Additional observations from a re-analysis of the deposited data

How the results depend on the processing

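No gene of the 41 changed direction under any of 19 alternative settings. The count of the 41 past the adjusted threshold was 0 in limma and also 0 with pseudocounts of 0.1 or 1 RPKM, no filter, TMM scaling, median centring, the highest transcript, the replicate block, and edgeR with its own filter with or without the block. It was 33 with a filter of 10 reads, 24 after quantile normalization, 22 in edgeR, 26 in edgeR with the block, 35 in DESeq2 and 29 in DESeq2 with the block. With 1 library left out it ran from 0 to 39, where a lone library was taken to be as variable as the pair in the other medium: 39 without the ENRI library of batch 1, 23 without that of batch 2, and 0 without either WENRC library. Over all genes the count called, 17 in limma, was 1 with a pseudocount of 0.1, 0 without a filter, 1491 with 10 reads, 929 after quantile normalization, 0 after TMM, 979 in edgeR, 932 in edgeR with the block, 0 in edgeR with its own filter and 193 with the block added, 2738 in DESeq2 and 1643 with the block, and 0 with the replicate block in limma. It ran from 0 to 5794 with 1 library left out. The count of the 41 lower at an unadjusted p stayed between 29 and 39, and the share over all genes (26.9%) was computed for the main limma fit only. The filter of 10 reads tested another set of genes, whose size is not given here. The median log2 difference of the 41 was -1.46 with a pseudocount of 0.1, -0.73 with 1, -0.80 after quantile normalization (all genes -0.04), -0.85 after TMM (all genes -0.02), -1.41 in edgeR with or without the block and with or without its own filter, -1.38 in DESeq2 and -1.39 with the block. The narrow peak lists marked 1 promoter in WENRC. The edgeR filter was chosen as an alternative after seeing the data. The causes of these shifts were not tested. Reads per gene and library went down to 27, which limits the precision of those ratios.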

Other observations

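Of the 41 genes, 11 had a divergent partner whose start lay within 1000 bp of their own, and 9 of these partners passed the filter. Their median log2 difference, ENRI minus WENRC, was -0.71, 8 were negative and 5 were lower at an unadjusted limma p under 0.05. Over all 11602 genes tested, the median was -0.21, 7619 were negative and 26.9% were lower at that threshold. Nudcd2, across from Hmmr, was at -1.28 ± 0.37 (SE, n = 2 per medium), with 1.27 and 0.397 RPKM in ENRI, against 2.25 and 2.90 RPKM in WENRC. Cstf1, across from Aurka, was at -0.85, Rhno1, across from Foxm1, at -0.84, Brd8, across from Kif20a, at -0.78, and 9930104L06Rik, across from Cdca8, at -0.71. The partners 1700125G22Rik of Ect2 (-0.35), Oip5 of Nusap1 (-0.26) and Mrpl51 of Ncapd2 (-0.03) did not pass the unadjusted threshold, and Pdzd11, across from Kif4, was at 0.19. Oip5 and Brd8 overlap the first bases of their partners, so reads near those starts cannot be assigned without the strand setting.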
